A study of Bos taurus with 9 samples.

Results

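The layout of 4 chromatin features in untreated rumen was described from the peak lists of the 4 control libraries, restricted to chromosomes 1 to 29. These lists were taken by their labelled condition, and their peaks by chromosome. They held 43247 peaks, out of 44788 on all chromosomes in the control lists and 86291 in the 8 lists of the series. H3K27ac contributed 36963 peaks, H3K9ac 4075, H3K9me3 1536 and RNA pol II 673. The series is a chromatin immunoprecipitation sequencing (ChIP-seq) study of rumen, the first stomach chamber of cattle, in the Holstein breed ("Hostein" in the labels), with material taken before and after 24 h of butyrate. The control groups are the material without butyrate, and no genotype, age or number of animals is given in the labels. Each antibody had 1 library per condition, so the values below have no replicate check and describe these libraries. All lists were called against 1 common input library, and the lists give positions only, so they do not show the read depth behind a peak. Per the labels, lane 1 carried the control H3K9ac and H3K27ac libraries and lane 3 those of RNA pol II and H3K9me3. Within control the lane and these pairs of antibodies therefore cannot be told apart.

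Chromatin packs DNA around histones, and chemical marks on the histone tails go with its activity. H3K27ac and H3K9ac are acetyl groups on lysines of histone H3. Both mark open, active chromatin, H3K9ac mainly at promoters and H3K27ac at promoters and enhancers alike. H3K9me3 is the trimethyl mark of heterochromatin, which silences repeated DNA and is found in the arrays of zinc finger genes and near centromeres. RNA pol II is the enzyme that transcribes protein-coding genes and is often found paused just after their start. Active marks and H3K9me3 are generally held to occupy separate chromatin. The rumen label could not be checked against marker genes, since gene positions in UMD3.1.1, the assembly of the lists, were not used here. The genes at the regions named below are not given for the same reason, and no sequence is shown.

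The lists differed in scale before they differed in place. H3K27ac made up 85.5% of the peaks and covered 13.4 Mb, or 0.535% of the 2509 Mb span of the chromosomes, at 14.7 peaks per Mb. H3K9ac covered 1.13 Mb at 1.62 peaks per Mb. H3K9me3 covered 0.402 Mb at 0.612 peaks per Mb, and RNA pol II 0.166 Mb at 0.268 peaks per Mb. H3K27ac peaks were the widest, with a median of 294 bp and a 99th percentile of 1107 bp. The median widths of H3K9ac, H3K9me3 and RNA pol II were 247 bp, 229 bp and 221 bp. Of the H3K27ac peaks 17.3% (95% Wilson interval 16.9 to 17.6) were wider than 500 bp, against 2.82% (2.36 to 3.38) for H3K9ac, 2.67% (1.97 to 3.60) for H3K9me3 and 1.34% (0.705 to 2.52) for RNA pol II. The minimum width of 200 bp was most common in RNA pol II, at 32.1% (28.7 to 35.7), and least common in H3K27ac, at 8.99% (8.71 to 9.29). These intervals, and all intervals of shares below, cover counting error only and treat peaks as independent.

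Peaks of the same antibody lay near each other in every list. The median gap between neighbouring H3K27ac peaks was 5.32 kb (95% interval 5.11 to 5.55), while the mean was 66.7 kb. For H3K9ac the median gap was 129 kb, for H3K9me3 565 kb and for RNA pol II 1479 kb. Another peak of the same antibody lay within 1 kb of 52.8% (52.3 to 53.3) of H3K27ac peaks, and 2.65% of the span was that close to an H3K27ac peak. The corresponding shares were 13.3% for H3K9ac, 11.8% for H3K9me3 and 5.05% for RNA pol II, against 0.350%, 0.131% and 0.0590% of the span. The share was 19.97 times that of the span for H3K27ac, 37.9 times for H3K9ac, 85.6 times for RNA pol II and 90.4 times for H3K9me3. The raw shares and these ratios thus order the lists differently. No share can pass the whole list, so the ratio has a ceiling that falls as the share of the span rises. That ceiling is lowest for H3K27ac, so the density of the lists partly sets the order of the ratios. The H3K27ac peaks formed 25217 clusters when peaks at most 1 kb apart were joined, 7782 of them with 2 or more peaks. Gaps inside these clusters had a median of 260 bp (quartiles 153 and 505 bp). The cluster with the most peaks held 13 within 9755 bp, at chr21:47286149-47295903.

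The first question was which antibodies shared the same places. H3K9ac lay almost wholly on H3K27ac: 3508 of its 4075 peaks, 86.1% (85.0 to 87.1), overlapped an H3K27ac peak by at least 1 bp. In the other direction 9.32% (9.03 to 9.62) of H3K27ac peaks overlapped H3K9ac. With 4075 H3K9ac peaks against 36963 of H3K27ac, this reverse share is largely set by the sizes of the lists. RNA pol II was spread over several kinds of place, with 35.2% (31.7 to 38.9) of its peaks on H3K27ac, 16.0% (13.5 to 19.0) on H3K9me3 and 13.4% (11.0 to 16.2) on H3K9ac. H3K9me3 peaks lay on H3K27ac in 4.30% of cases (3.39 to 5.43), on H3K9ac in 2.54% (1.86 to 3.45) and on RNA pol II in 7.23% (6.04 to 8.63). For scale, H3K27ac peaks covered 0.535% of the span, H3K9ac peaks 0.0449%, H3K9me3 peaks 0.0160% and RNA pol II peaks 0.00661%. Each of these overlap shares exceeded the covered share of its target, H3K9me3 on H3K27ac included. The 2 measures are unlike, since a peak counts when any of its bases is shared, while the covered share counts single bases. The width of the peaks therefore adds to each excess, and its part was not tested. The common input can add to any overlap between lists, and its part was not tested.

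Joining overlapping peaks of the 4 lists gave 39299 merged regions. A single antibody was present in 35637 of them, 90.7% (90.4 to 91.0). H3K27ac alone accounted for 33344 regions, H3K9me3 alone for 1388, H3K9ac alone for 550 and RNA pol II alone for 355. Of the 3546 regions with 2 antibodies, 3310 were the pair of acetylations, with a median width of 513 bp. H3K27ac with RNA pol II followed at 131 regions, and RNA pol II with H3K9me3 at 69. H3K27ac with H3K9me3 had 23 regions, H3K9ac with RNA pol II 7 and H3K9ac with H3K9me3 6. There were 96 regions with 3 antibodies, 70 of them both acetylations with RNA pol II, and 20 regions with all 4. Thus every one of the 15 possible combinations occurred, with counts from 4 to 33344.

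**Figure D1:**
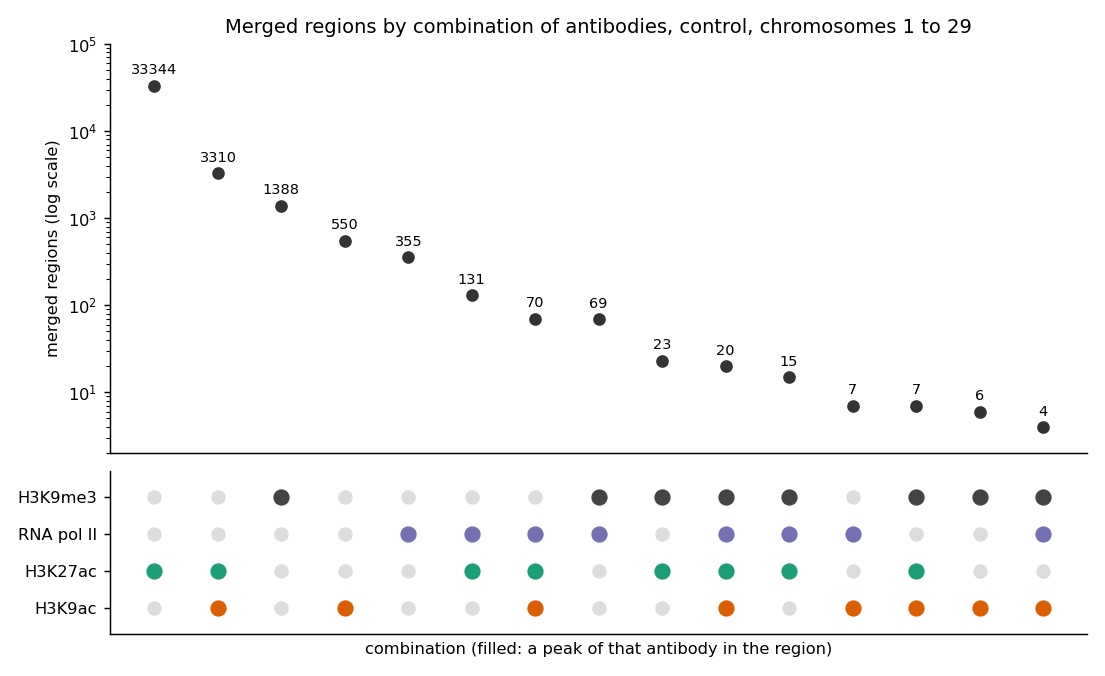
Number of merged regions for each of the 15 combinations of antibodies in control, on a log scale, with the antibodies of each combination filled in below. H3K27ac alone (33344) is followed by both acetylations (3310), and RNA pol II with H3K9me3 (69) is about as frequent as RNA pol II with both acetylations (70).

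The shared places differed in size by combination. Regions with both acetylations and RNA pol II had a median width of 651.5 bp, and 55 of 70 were wider than 500 bp. The 131 regions of H3K27ac with RNA pol II had a median of 442 bp and the 69 of RNA pol II with H3K9me3 a median of 350 bp. A region joined from several peaks is at least as wide as each of them, so these widths partly follow from the joining. The widest region of both acetylations was chr23:7235728-7238382, 2655 bp, which was also the widest H3K27ac peak, with the nearest RNA pol II peak 0.920 kb away. The widest with both acetylations and RNA pol II was chr6:23340679-23342301 (1623 bp), and the widest with H3K27ac and RNA pol II was chr11:60110408-60111912 (1505 bp). Among combinations with H3K9me3, the widest of H3K27ac, RNA pol II and H3K9me3 was chr14:72581203-72582287 (1085 bp), that of both acetylations and H3K9me3 was chr7:4713839-4714803 (965 bp), and that of H3K9ac, RNA pol II and H3K9me3 was chr16:7406936-7407435 (500 bp). The widest pairs were chr6:6326277-6326934 (658 bp) for RNA pol II with H3K9me3, chr24:61947608-61948211 (604 bp) for H3K27ac with H3K9me3, chr6:5802385-5803090 (706 bp) for H3K9ac with H3K9me3 and chr14:63464548-63465096 (549 bp) for H3K9ac with RNA pol II.

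Where H3K9ac and H3K27ac met, the H3K9ac peak mostly lay inside the H3K27ac peak. Of the 3508 overlapping H3K9ac peaks 72.3% (70.8 to 73.8) lay wholly inside an H3K27ac peak, and 73.8% (72.4 to 75.3) had their midpoint in its central 50%. The midpoints were a median of 72.5 bp apart (quartiles 31.5 and 152 bp). Median widths were 252 bp for these H3K9ac peaks and 502 bp for the H3K27ac peaks under them. A narrower peak is more easily enclosed. Of the 237 RNA pol II peaks on H3K27ac, 54.0% (47.6 to 60.2) also lay wholly inside it. In bases, 81.6% of the H3K9ac coverage was also under H3K27ac, and 6.85% of the H3K27ac coverage was under H3K9ac. The share of H3K9ac peaks on H3K27ac was 92.5% on chromosome 25 (106 peaks) and 72.7% on chromosome 20 (55 peaks), the highest and lowest of the 29 chromosomes. The 567 H3K9ac peaks off H3K27ac were narrower (median 227 bp against 252 bp) but lay in the same neighbourhoods, a median of 2.31 kb from the nearest H3K27ac peak. Around them a median of 5 H3K27ac peaks lay within 50 kb, against 7 for those on H3K27ac, and 45 of the 567 had none.

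H3K27ac peaks carried H3K9ac more often the wider they were. The share with H3K9ac rose over the width classes from 1.53% (1.17 to 2.01) of 3324 peaks at 200 bp, through 3.34% above 200 to 300 bp and 10.5% above 300 to 500 bp, to 26.2% (25.1 to 27.3) of 6378 peaks wider than 500 bp. Among the 583 peaks wider than 1000 bp it reached 50.6% (46.6 to 54.6). Since narrow peaks are more numerous, 1774 of the 3445 H3K27ac peaks with H3K9ac were at most 500 bp wide and 1671 were wider. The share with RNA pol II was 0.391% (0.229 to 0.668) at 200 bp, 1.51% (1.23 to 1.83) above 500 bp and 3.77% (2.51 to 5.65) above 1000 bp. H3K9me3 went the other way, from 0.331% (0.185 to 0.592) at 200 bp to 0.0627% (0.0244 to 0.161) above 500 bp, with 0 of the 583 widest. A wider peak has more bases that can meet another peak, and the lists hold no peak height to set beside the width.

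**Figure D2:**
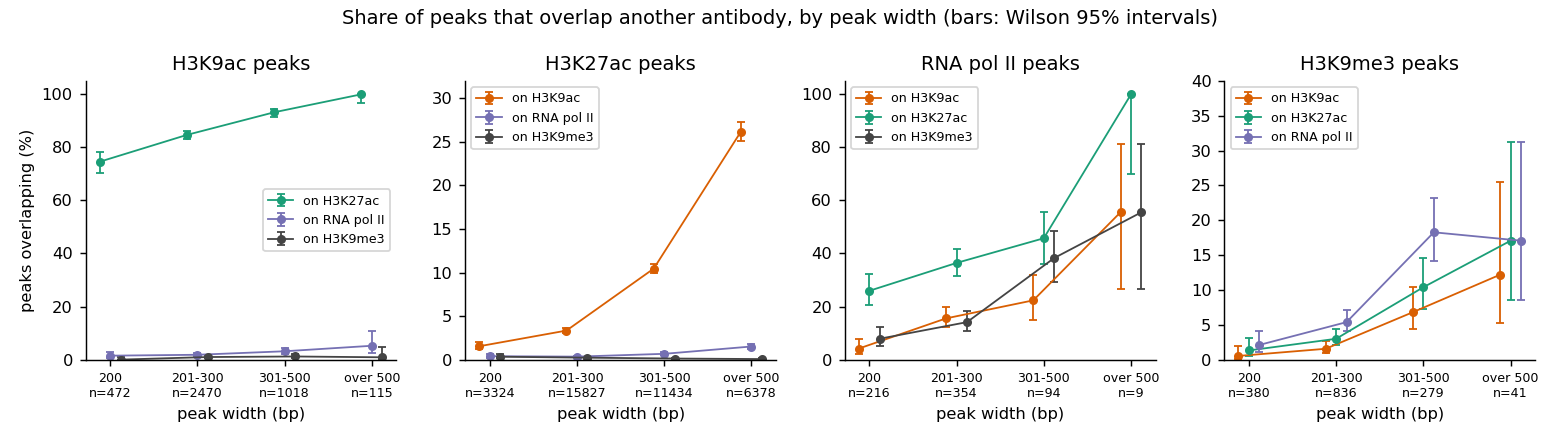
Share of peaks of each antibody, in percent, that overlap each other antibody, by width class of the peak; points are shares, bars are 95% Wilson intervals and n is the number of peaks in the class. H3K9ac on H3K27ac peaks climbs from 1.53% to 26.2% while H3K9me3 falls to 0.0627%; for RNA pol II and H3K9me3 peaks the shares on each other are higher above 300 bp than at 200 bp, and few peaks are wider than 500 bp.

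In the other lists the shares also rose with peak width, although most shared peaks were narrow. All 115 H3K9ac peaks wider than 500 bp and all 9 such RNA pol II peaks overlapped H3K27ac, against 74.6% (70.5 to 78.3) and 25.9% (20.5 to 32.2) at 200 bp. RNA pol II peaks overlapped H3K9me3 in 7.87% (4.97 to 12.2) of cases at 200 bp, 14.1% (10.9 to 18.1) above 200 to 300 bp and 38.3% (29.1 to 48.4) above 300 to 500 bp. H3K9me3 peaks overlapped RNA pol II in 2.11% (1.07 to 4.10) of cases at 200 bp and 18.3% (14.2 to 23.2) above 300 to 500 bp. Their overlap with H3K27ac rose likewise, from 1.32% (0.563 to 3.04) to 10.4% (7.34 to 14.5), the opposite of the trend seen from the H3K27ac side.

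Clusters of H3K27ac peaks carried the other active features more often than single peaks. Of the 17435 H3K27ac peaks with no neighbour within 1 kb, 7.51% (7.13 to 7.91) overlapped H3K9ac, and of the clusters of 2, 3 and 4 or more peaks 20.1%, 28.6% and 39.7% (36.5 to 43.0) did. RNA pol II was found in 0.579% (0.477 to 0.703) of the single peaks and in 4.07% (2.94 to 5.60) of the 861 clusters of 4 or more. H3K9me3 was in 58 of the 17435 single peaks, 0.333% (0.257 to 0.430), and in 5 of the 7782 clusters, 0.0643% (0.0274 to 0.150). A cluster covers more bases than a single peak, with a median extent of 2935 bp for 4 or more peaks against 276 bp, so a rise is built in for H3K9ac and RNA pol II, while the H3K9me3 share fell in spite of it. In the 1861 clusters of 2 or more peaks with H3K9ac on an H3K27ac peak, the H3K9ac lay on the widest H3K27ac peak of the cluster in 71.5% (69.4 to 73.5) of cases, where on average 45.6% of the cluster's peaks carried it. In 13.5% of these clusters H3K9ac lay on more than 1 peak.

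RNA pol II was found more often in regions with both acetylations than in those with H3K27ac but no H3K9ac. It was present in 2.64% (2.15 to 3.24) of the 3407 regions with both acetylations and in 0.436% (0.371 to 0.512) of the 33513 regions with H3K27ac but no H3K9ac. Regions with both are wider, so the shares were also read within width classes of the merged region. That width includes any RNA pol II peak, which can itself move a region up a class. The classes therefore do not fully remove the part of width. Up to 300 bp the shares were 0.958% (0.326 to 2.78) and 0.119% (0.0784 to 0.180). Above 300 to 500 bp they were 1.77% (1.18 to 2.65) and 0.663% (0.523 to 0.839), and above 500 to 1000 bp 3.30% (2.50 to 4.33) and 1.04% (0.778 to 1.38). Above 1000 bp the shares of 4.82% (2.94 to 7.80) and 3.45% (1.88 to 6.23) had intervals that overlapped. The 567 regions with H3K9ac but no H3K27ac had RNA pol II in 1.94% (1.09 to 3.44) of cases, which overlaps the interval for both acetylations. Up to 300 bp their share was 1.02% (0.436 to 2.36), and above 300 to 500 bp it was 6.76% (2.92 to 14.9), from 5 of 74 regions. H3K9me3 was in 0.792% (0.545 to 1.15) of regions with both acetylations and in 0.113% (0.0826 to 0.156) of those with H3K27ac without H3K9ac. Above 1000 bp these were 0 of 311 and 1 of 290 regions. With H3K9ac but no H3K27ac it was in 10 of 567, 1.76% (0.961 to 3.22). A stretch described below, chr6:5000001-7000000, held 3 of the 6 regions of H3K9ac with H3K9me3. It also held 2 of the 4 of H3K9ac with RNA pol II and H3K9me3.

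The RNA pol II peaks fell into 4 classes. The largest, 355 peaks or 52.7% (49.0 to 56.5), overlapped none of the other antibodies, 210 overlapped acetylation only, 71 overlapped H3K9me3 only and 37 overlapped both acetylation and H3K9me3. The surroundings of these classes differed. Peaks at acetylation only had a median of 8 H3K27ac peaks within 50 kb, and 2 of 210 had none. Peaks at H3K9me3 only had a median of 0, with none in 64.8% (53.2 to 74.9) of cases, and lay a median of 66.4 kb from the nearest H3K27ac peak. The RNA pol II peaks alone were between these, with a median of 2 H3K27ac peaks within 50 kb, none in 31.5% (26.9 to 36.6) and a median distance of 21.0 kb. H3K9me3 peaks that overlapped nothing had no H3K27ac peak within 50 kb in 51.2% (48.6 to 53.8) of cases. The acetylation classes are partly set by the H3K27ac peak they overlap.

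The 37 RNA pol II peaks at both acetylation and H3K9me3 were the widest class, with a median of 312 bp (95% interval 282 to 357), against 229 bp (217 to 239) at acetylation only, 246 bp (223 to 271) at H3K9me3 only and 209 bp (205 to 217) alone. They held 5 of the 9 RNA pol II peaks wider than 500 bp. Among H3K9me3 regions, those with RNA pol II had acetylation more often than those without it. Of the 108 merged regions with H3K9me3 and RNA pol II, 39 or 36.1% (27.7 to 45.5) also had H3K9ac or H3K27ac, whereas 36 of the 1424 with H3K9me3 but no RNA pol II did, 2.53% (1.83 to 3.48). Among the 563 regions with RNA pol II but no H3K9me3 the share was 36.9% (33.1 to 41.0), nearly that of the regions with both. The stretch chr6:5000001-7000000 held 3 of the 15 regions of H3K27ac with RNA pol II and H3K9me3. It also held 2 of the 4 of H3K9ac with RNA pol II and H3K9me3, and 3 of the 20 with all 4 antibodies. Of the 69 with RNA pol II and H3K9me3 but no acetylation it held 11.

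The 20 regions with all 4 antibodies lay on 13 chromosomes and ranged from 263 to 868 bp, with a median of 485.5 bp. The widest were chr17:34219218-34220085 (868 bp), chr6:6008455-6009297 (843 bp) and chr3:17429201-17429922 (722 bp). The second of these was itself a single RNA pol II peak, the widest of that list. Chromosomes 3, 6 and 18 held 3 each, and those of chromosome 6 lay within 1 Mb of each other, at 5786984, 6008455 and 6019976.

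H3K27ac, the densest list, was also the nearest to the other antibodies. The median distance to the nearest H3K27ac peak was 0 from H3K9ac peaks, 4.45 kb (2.31 to 6.90) from RNA pol II peaks and 47.7 kb (43.8 to 54.3) from H3K9me3 peaks. Within 10 kb of an H3K27ac peak lay 96.4% of H3K9ac peaks, 56.5% (52.7 to 60.2) of RNA pol II peaks and 18.9% (17.1 to 21.0) of H3K9me3 peaks, where 13.9% of the span was that close. The share of H3K9me3 peaks was thus closest to that of the span. To the nearest H3K9ac peak the median was 79.6 kb (69.9 to 103) from RNA pol II and 248 kb (223 to 269) from H3K9me3. From H3K27ac it was 46.6 kb, with 16.0% of H3K27ac peaks within 1 kb of H3K9ac. With peaks of at least 300 bp only, the medians from 104 RNA pol II peaks were 14.1 kb (2.3 to 50.6) to H3K27ac and 276 kb (158 to 443) to H3K9ac. From 320 H3K9me3 peaks the median to H3K9ac was 703 kb (516 to 997). This setting also thins the lists measured to, with 1151 H3K9ac peaks left, and fewer targets by themselves lengthen distances. With chromosome X included, RNA pol II lay a median of 7.99 kb from H3K27ac and 199 kb from H3K9me3.

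RNA pol II and H3K9me3 seldom lay side by side without overlap. Of the RNA pol II peaks 108 overlapped an H3K9me3 peak and a further 8 had one within 1 kb, while 94 lay over 1 kb and up to 100 kb away and the median distance was 378 kb (313 to 439). For RNA pol II and H3K27ac the numbers were 237 overlapping and 44 more within 1 kb, of which 2 had H3K27ac on both sides. Overlapping RNA pol II and H3K9me3 peaks had midpoints a median of 49 bp apart, compared with 75 bp for RNA pol II and H3K27ac. From H3K9me3, 111 peaks overlapped RNA pol II and 23 more were within 1 kb. After butyrate, where RNA pol II was on lane 3 and H3K9me3 on lane 4, 134 of 1242 RNA pol II peaks on these chromosomes overlapped H3K9me3, 10.8% (9.18 to 12.6). The part of the lane in either share was not tested.

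**Figure D3:**
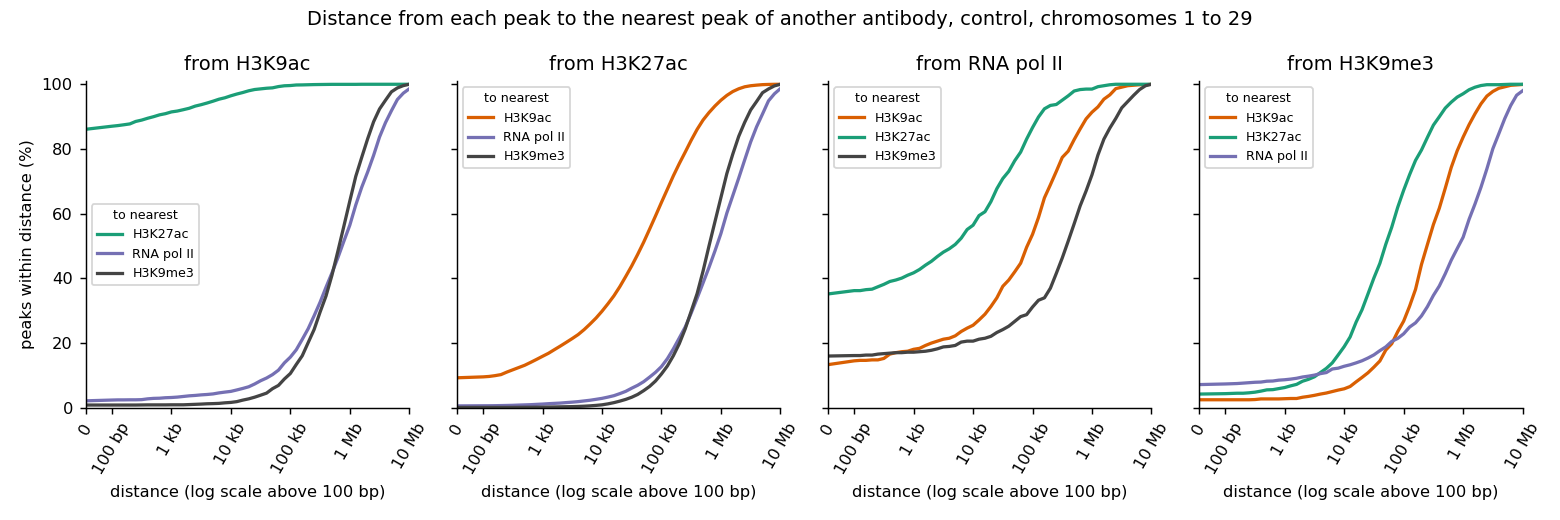
Cumulative share of peaks, in percent, against the distance to the nearest peak of each other antibody (linear to 100 bp, log scale above), with 1 panel for each list measured from. The curve from RNA pol II to H3K9me3 starts at 16.0% and is nearly flat to 1 kb (17.2%), reaches 31.2% at 100 kb and climbs more steeply beyond, and that from H3K9ac to H3K27ac starts at 86.1%.

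Over larger distances the density of peaks was compared in 2494 bins of 1 Mb. H3K27ac peaks averaged 14.6 per bin and were absent from 21.7% of bins. H3K9ac averaged 1.62 and was absent from 49.2%, H3K9me3 averaged 0.603 and was absent from 67.8%, and RNA pol II averaged 0.268 and was absent from 80.6%. All were uneven, with a variance of 25.8 times the mean for H3K27ac, 5.05 for H3K9me3, 4.31 for H3K9ac and 2.77 for RNA pol II. The densest 10% of bins, chosen for each antibody, held 42.3% of the H3K27ac, 49.6% of the H3K9ac, 61.1% of the H3K9me3 and 64.8% of the RNA pol II peaks. Lists with few peaks per bin reach a high share in this measure more easily.

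The acetylations followed each other across bins. Pearson's r between H3K9ac and H3K27ac was 0.83 (Spearman's rho 0.80) and lay between 0.58 on chromosome 27 and 0.92 on chromosome 5 within single chromosomes. H3K9ac was seen without H3K27ac in 2 bins only, while 688 bins had H3K27ac without H3K9ac. RNA pol II had an r of 0.30 (rho 0.33) with H3K9ac and 0.25 (rho 0.35) with H3K27ac, which fell to 0.098 and 0.073 with peaks of at least 300 bp only. That setting thins every list and leaves 104 RNA pol II peaks over all bins. H3K9me3 had an r of 0.08 (rho 0.14) with H3K9ac and 0.07 (rho 0.22) with H3K27ac. These were 0.23 and 0.21 in bins of 5 Mb and 0.024 and 0.0070 with chromosome X included. Between RNA pol II and H3K9me3 r was 0.57 but rho 0.20. These values describe bins that share the input library and the same stretches of alignable sequence, and bins are not replicates. For comparison, the same antibody in control and after butyrate, which differ in treatment and, except for RNA pol II, in lane, had an r of 0.98 for H3K27ac, 0.84 for H3K9ac, 0.69 for H3K9me3 and 0.53 for RNA pol II.

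The gap between r and rho for RNA pol II and H3K9me3 came from few bins. Without the densest 1% of bins of either list r was 0.21, and without the 2 bins of chr6:5000001-7000000 it was 0.34 (rho 0.20). That stretch, chosen after its values had been seen, makes up 0.0797% of the span and held 36 RNA pol II peaks, 5.35% (3.89 to 7.32) of the list, and 79 H3K9me3 peaks, 5.14% (4.15 to 6.36). It held 9 H3K9ac and 11 H3K27ac peaks, 0.221% and 0.0298% of their lists. After butyrate the same stretch held 28 RNA pol II and 42 H3K9me3 peaks, 2.25% (1.56 to 3.24) and 2.46% (1.82 to 3.30). In control 19 of its 36 RNA pol II peaks overlapped H3K9me3, 52.8% (37.0 to 68.0), against 14.0% (11.5 to 16.9) of the 637 elsewhere. Of its 99 merged regions 55 were H3K9me3 alone, 17 RNA pol II alone, 11 both of these and 3 all 4 antibodies. Without it r rose to 0.37 between RNA pol II and H3K9ac and to 0.35 between RNA pol II and H3K27ac, above the 0.34 between RNA pol II and H3K9me3, so leaving this stretch out changed the order of the 3 values.

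**Figure D4:**
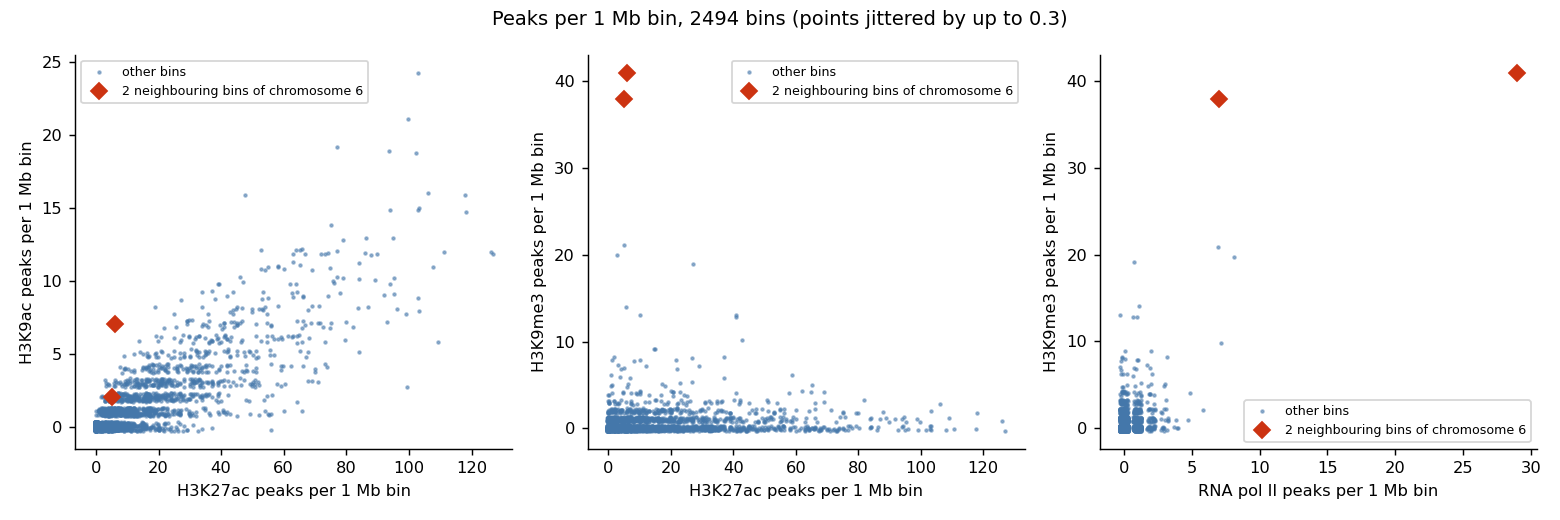
Peaks per 1 Mb bin for H3K27ac against H3K9ac, H3K27ac against H3K9me3 and RNA pol II against H3K9me3, 1 point per bin of 2494, with the 2 bins of the chromosome 6 stretch as diamonds. H3K9ac rises with H3K27ac over its whole range, the highest H3K9me3 counts (41 and 38) are in bins with 6 and 5 H3K27ac peaks, and the diamonds stand far from all other bins in the third panel, at 29 and 7 RNA pol II peaks with 41 and 38 H3K9me3 peaks.

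When bins were ordered by their number of H3K27ac peaks, H3K9ac kept pace and H3K9me3 did not. Over the classes from 1 to 4 up to 60 to 127 H3K27ac peaks per bin there were 11.9, 11.2, 10.5, 10.9 and 11.7 H3K9ac peaks per 100 H3K27ac peaks. The proportion was nearly constant over these classes. By chromosome it varied more, from 6.60 on chromosome 27 to 15.5 on chromosome 5. RNA pol II rose from a mean of 0.0315 peaks per bin in the 540 bins without H3K27ac to 0.122, 0.278, 0.336, 0.530 and 1.01 in the classes above. H3K9me3 rose from 0.191 to 0.514 and 0.759 and then levelled off at 0.826, 0.801 and 0.661. Standard deviations between bins in the classes from 5 H3K27ac peaks upward were 2.64, 1.58, 1.57 and 1.08. They describe the spread of bins and not the error of a class mean, and no difference between classes was tested, for RNA pol II either. None of those classes is therefore named as the highest in H3K9me3. Without the chromosome 6 stretch the third class had 0.222 RNA pol II and 0.637 H3K9me3 peaks per bin. In the densest class of 109 bins, 60.6% of bins had RNA pol II and 36.7% had H3K9me3. Of the 540 bins without H3K27ac 451 held no peak of any antibody, 79 held H3K9me3, 17 held RNA pol II and 2 held H3K9ac.

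The bins with the most peaks differed between the acetylations and H3K9me3. For H3K9ac they were chr5:104000001-105000000 with 24 peaks, chr19:43000001-44000000 with 23 and chr5:26000001-27000000 with 21, which held 103, 84 and 100 H3K27ac peaks. For H3K27ac they were chr29:44000001-45000000 with 127 peaks, chr16:52000001-53000000 with 126 and chr3:14000001-15000000 with 118, which held 12, 12 and 16 H3K9ac peaks. These 6 bins together held at most 1 H3K9me3 peak each, and between 0 and 4 RNA pol II peaks. In RNA pol II the first pair of H3K9ac bins ranked 13 and 9 of all bins. The RNA pol II bins were chr6:6000001-7000000 with 29 peaks, chr16:7000001-8000000 with 8 and chr3:17000001-18000000 with 7. They held 41, 20 and 10 H3K9me3 peaks, while H3K27ac had 6 and 3 in the first pair and 43 in the last. For H3K9me3 the bins were chr6:6000001-7000000 with 41 peaks, chr6:5000001-6000000 with 38 and chr14:1-1000000 with 21, with 29, 7 and 7 RNA pol II peaks. The other RNA pol II bins ranked 4 and 10 in H3K9me3, and the other H3K9me3 bins shared rank 3 in RNA pol II.

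Chromosome 19 had the highest density of H3K27ac (36.2 peaks per Mb), of H3K9ac (4.12) and of RNA pol II (0.593). For H3K9me3 it was chromosome 18, at 1.70 peaks per Mb, and 30 of its 112 peaks lay in chr18:55000001-60000000. Chromosome 18 was second for the other 3 antibodies, so it was rich in active marks and in H3K9me3 alike. The lowest densities were 7.14 peaks per Mb for H3K27ac on chromosome 6, 0.478 for H3K9ac on chromosome 27 and, on chromosome 26, 0.0968 for RNA pol II and 0.271 for H3K9me3. The highest density was 8.62 times the lowest for H3K9ac, 6.26 times for H3K9me3, 6.13 times for RNA pol II and 5.07 times for H3K27ac. Without the stretch at 5 to 7 Mb, chromosome 6 had 11 RNA pol II peaks, or 0.0937 per Mb, below chromosome 26. Densities per chromosome of the acetylations had an r of 0.94 across the 29 chromosomes.

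Along the chromosomes the antibodies differed at the start, which is the centromeric end of these acrocentric chromosomes. The first 10% of the chromosomes held 16.8% (15.0 to 18.7) of H3K9me3 and 15.5% (12.9 to 18.4) of RNA pol II peaks, but 7.29% (7.03 to 7.56) of H3K27ac and 6.38% (5.67 to 7.17) of H3K9ac peaks. Without the chromosome 6 stretch, which lies in the first 10% of chromosome 6, the shares were 12.3% (10.7 to 14.1) for H3K9me3 and 10.7% (8.51 to 13.3) for RNA pol II. The interval for RNA pol II then included 10%. The last 10% held 15.5% (15.1 to 15.8) of H3K27ac, 12.5% (11.6 to 13.6) of H3K9ac, 14.7% (13.0 to 16.6) of H3K9me3 and 11.0% (8.85 to 13.6) of RNA pol II peaks. In the last 2 Mb, 2.31% of the span, lay 4.65% (4.44 to 4.86) of H3K27ac and 4.56% (3.62 to 5.72) of H3K9me3 peaks. In the first 2 Mb lay 5.34% (4.32 to 6.58) of H3K9me3 and 4.75% (3.39 to 6.64) of RNA pol II peaks, against 2.02% (1.88 to 2.16) of H3K27ac peaks. Of the 82 H3K9me3 and 32 RNA pol II peaks in the first 2 Mb, many were on 1 chromosome. The bin chr14:1-1000000 held 21 H3K9me3 and 7 RNA pol II peaks. H3K9me3 was thus raised at both ends and H3K27ac at the distal end only, as far as these windows, pooled over chromosomes, show.

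**Figure D5:**
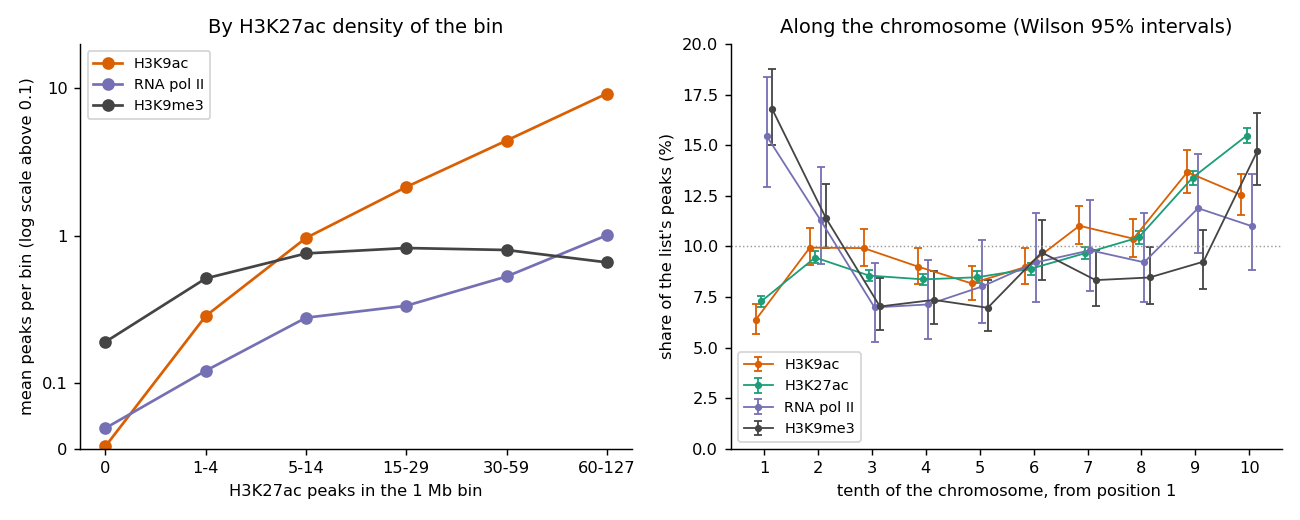
Left, mean peaks per 1 Mb bin of H3K9ac, RNA pol II and H3K9me3 by the number of H3K27ac peaks in the bin (log scale above 0.1); right, share of each list's peaks in 10 equal parts of the chromosome, in percent, with 95% Wilson intervals and a dotted line at 10%. H3K9ac and RNA pol II rise with H3K27ac while H3K9me3 levels off, and the first part is high for H3K9me3 (16.8%) and RNA pol II (15.5%) and low for both acetylations.

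Some stretches held few or no peaks. The longest stretch without H3K27ac, chr20:42061268-56054908, spanned 13.99 Mb and had no peak of any antibody. The longest without H3K9ac, chr1:26319728-42458633 (16.1 Mb), had 23 H3K27ac peaks and none of RNA pol II or H3K9me3. That without RNA pol II, chr1:1359292-46515454 (45.2 Mb), had 178 H3K27ac, 16 H3K9ac and 7 H3K9me3 peaks and encloses the former. No H3K9me3 peak was called in chr2:45954713-69902921 (23.9 Mb), where 66 H3K27ac and 8 H3K9ac peaks were found. The H3K9me3 list holds short calls (median 229 bp), so an empty stretch in it does not show that the mark was absent. Among single peaks, the widest of H3K9me3, chr15:29598746-29599729 (984 bp), lay 46.7 kb from H3K27ac and 14.3 kb from RNA pol II. The widest of H3K9ac, chr10:21812284-21813313 (1030 bp), lay on H3K27ac, 411 kb from RNA pol II and 503 kb from H3K9me3.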

How the data were processed

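ChIP-seq of rumen was carried out with 4 antibodies, 1 library each in control, and 1 input library. The labels name Trim Galore 0.4.1, BWA and MACS2. According to the study, the authors aligned 75-nt reads to UMD3.1.1, kept unique alignments and called peaks at default settings against the input. Whether reads were single-end or paired-end is stated differently in the series text and the methods. The deposited lists hold 3 columns, chromosome, start and end, which were read as 1-based positions with both ends included, and have no scores or read counts.

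Distances were measured between peak edges (0 where peaks overlapped), and overlap required 1 bp. Regions were merged where peaks overlapped. Densities were counted by peak midpoint in full 1 Mb bins, and a chromosome ended at the last peak of any list. Shares have Wilson 95% intervals and medians order-statistic intervals. No test was run, since each group had 1 library. The regions named were the 3 densest bins, widest peak and longest gap per antibody, the widest region per combination, and the extreme chromosomes. Others (the chromosome 6 stretch, the H3K27ac cluster, the dense part of chromosome 18, chromosomes 20 and 25 for overlap) were chosen after their values were seen. The lists and measures were chosen with earlier results of these data known. Python 3.11.15, numpy 2.4.6, pandas 2.3.3 and scipy 1.17.1 were used, and functions were tested on simulated data. Alternatives were a stricter and a looser overlap, midpoints, peaks of at least 300 bp, other bins, and chromosome X.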

Additional observations from a re-analysis of the deposited data

Results flagged for a closer look

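Peaks outside chromosomes 1 to 29 belong to none of the comparisons above, and they are given as values. On chromosome X the control lists held 37 H3K9ac, 605 H3K27ac, 181 RNA pol II and 691 H3K9me3 peaks, which is 0.899%, 1.61%, 21.0% and 30.8% of the lists with all chromosomes. The 1328 merged regions of X included 63 with RNA pol II and H3K9me3, 17 with both acetylations and 10 with all 4 antibodies. Across 148 bins of X the r between RNA pol II and H3K9me3 was 0.90 (rho 0.69), and that between the acetylations 0.45 (rho 0.43). On the mitochondrial chromosome, which has no histones, there were 9 RNA pol II and 15 H3K9me3 peaks, and 3 of H3K9ac and 0 of H3K27ac.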

How the results depend on the processing

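No paired analysis was possible because every group had a single library. Of 114 values under alternative settings 61 stayed within the interval of the reported value, and 53 moved further. For shares and medians this was the counting interval. For correlations it came from a formula that treats bins as independent, although bins are not replicates. Counts of regions were held to 1.5 times instead. Only the correlations can change sign, and 0 of them did. For the 53 shifts the cause was not tested. Leaving out chr6:5000001-7000000 was chosen after seeing the data. Width stood in for a score, so a stricter peak threshold was not tested. The paper gives a mapping summary of its data sets, which was not used here, so the part of read depth was not tested.

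When 50% of the shorter peak had to be shared, 83.4% of H3K9ac peaks lay on H3K27ac. With peaks at most 1 kb apart this share was 91.5%, RNA pol II was near H3K27ac in 41.8% and near H3K9ac in 18.1% of cases, and H3K9me3 near H3K27ac in 6.32%. Merging at 1 kb left 21647 regions of H3K27ac alone.

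With peaks of at least 300 bp every list was thinned, which left 104 RNA pol II, 320 H3K9me3 and 1151 H3K9ac peaks. RNA pol II overlapped H3K9me3 in 26.0% and H3K9me3 overlapped H3K9ac in 3.75% of cases. Median distances from RNA pol II were then 14.1 kb to H3K27ac, 276 kb to H3K9ac and 276 kb to H3K9me3, and from H3K9me3 64.0 kb to H3K27ac and 703 kb to H3K9ac. The r was 0.70 for the acetylations, 0.10 for H3K9ac and RNA pol II, 0.073 for H3K27ac and RNA pol II and 0.61 for RNA pol II and H3K9me3. Regions then numbered 16888 for H3K27ac alone, 284 for H3K9me3 alone, 50 for RNA pol II alone, 973 for both acetylations, 22 for H3K27ac with RNA pol II, 16 for RNA pol II with H3K9me3 and 6 for all 4.

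With X included, RNA pol II overlapped H3K27ac in 31.6% and H3K9me3 in 24.0% of cases. Its median distances were 7.99 kb to H3K27ac, 112 kb to H3K9ac and 199 kb to H3K9me3, and those of H3K9me3 56.2 kb to H3K27ac and 281 kb to H3K9ac. The r with X was 0.22 for H3K9ac and RNA pol II, 0.024 for H3K9ac and H3K9me3, 0.17 for H3K27ac and RNA pol II, 0.0070 for H3K27ac and H3K9me3 and 0.73 for RNA pol II and H3K9me3, and 132 regions had RNA pol II with H3K9me3.

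With bins of 0.5 Mb r was 0.79 for the acetylations, 0.25 for H3K9ac and RNA pol II, 0.21 for H3K27ac and RNA pol II and 0.52 for RNA pol II and H3K9me3. With bins of 5 Mb the same pairs had 0.91, 0.45, 0.39 and 0.70, H3K9ac and H3K9me3 had 0.23, and H3K27ac and H3K9me3 had 0.21. Counting base pairs under peaks gave 0.85 for the acetylations, 0.26 for H3K9ac and RNA pol II and 0.62 for RNA pol II and H3K9me3. Without the chromosome 6 stretch r was 0.37 for H3K9ac and RNA pol II, 0.35 for H3K27ac and RNA pol II and 0.34 for RNA pol II and H3K9me3.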
